A study of Homo sapiens with 9 samples.

Results

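The 9 genes described here encode the enzymes that make serine and that carry its one-carbon units on folate in the cytosol and in the mitochondria. PHGDH, PSAT1 and PSPH form serine, and SHMT1, SHMT2, MTHFD1, MTHFD2, MTHFD1L and ALDH1L2 handle the one-carbon units. They were chosen by gene symbol, and 9 of 9 were found among the 30017 genes of the count table. All 9 had enough counts to be tested, among 12712 genes that did. RNA-sequencing (RNA-seq) was performed on MOLM13, a human acute myeloid leukemia cell line with monocytic features, grown with 20% fetal bovine serum. In every group the cells carried a lentivirus with green fluorescent protein and a short hairpin RNA (shRNA), and were sorted for that protein on day 4 after transduction. The hairpin was sh-Control in the control group, and shDDX41 #1 or shDDX41 #2 in the groups with lowered DDX41, a DEAD-box RNA helicase. Each group had 3 libraries, named A, B and D, all from 1 cell line, and the sources used here do not say whether the letters mark separate cultures. The p-values below therefore measure the spread between these libraries, which may be technical.

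PHGDH draws carbon away from glycolysis by oxidizing 3-phosphoglycerate, PSAT1 transfers an amino group to the product, and PSPH removes the phosphate to release serine. SHMT1 in the cytosol and SHMT2 in the mitochondria then split serine into glycine and a one-carbon unit bound to tetrahydrofolate. MTHFD2 and MTHFD1L turn that unit into formate inside the mitochondria, MTHFD1 takes formate up again in the cytosol for purine and thymidylate synthesis, and ALDH1L2 oxidizes mitochondrial formyl-tetrahydrofolate to carbon dioxide with the release of NADPH. Several of these genes are known targets of the transcription factor ATF4, and proliferating leukemia cells are known to use the pathway heavily for nucleotides.

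Libraries held from 16385238 to 20510032 counts. Levels are in CPM, the usual unit of a gene's count relative to the size of its library, with library sizes scaled by TMM factors (edgeR). DDX41 itself stood at 115 ± 1.76 CPM (SD, n = 3) in sh-Control, 11.7 ± 1.56 CPM with shDDX41 #1 and 40.4 ± 1.85 CPM with shDDX41 #2, so the knockdown was deeper with shDDX41 #1. Of 10 myeloid markers, 9 were at 1 CPM or more in each group, and their summed level ran from 1978 to 2031 CPM over the sh-Control libraries, from 2029 to 2080 over those of shDDX41 #1 and from 2906 to 2933 over those of shDDX41 #2. The marker below 1 CPM was CD14, with a mean of at most 0.101 CPM in a group. The mean of LYZ alone was 931 CPM for sh-Control and 1818 CPM for shDDX41 #2. MPO (112 and 169 CPM) and ITGAM (12.5 and 17.9 CPM) also had higher means with shDDX41 #2. CD33, CSF1R, FCGR1A, FLT3 and SPI1 had lower means with shDDX41 #2 than in sh-Control. The part of these differences in the results below was not tested. Of the erythroid markers 5 of 6 had no count in any library, HBB and GATA1 among them, and of the lymphoid markers 3 of 7, with sums of at most 0.425 and 3.27 CPM in any library. Epithelial and kidney markers, looked at because the virus was made in 293T cells, summed to between 14.7 and 19.4 CPM in every library, with CDH1 and KRT19 at 0. Library D of shDDX41 #1 stood farthest from its group, and results on the 9 enzymes whose call changes without it are given with and without it. Both hairpins were compared with the same sh-Control libraries.

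With shDDX41 #1, 7 of the 9 enzymes fell and none rose. The 2 that did not pass the test were SHMT2 and MTHFD2, the first and the middle step of the mitochondrial route to formate. With shDDX41 #2, 4 fell, none rose, and 5 did not pass. Between the hairpins, 7 were lower with shDDX41 #1 and 2 did not pass, again SHMT2 and MTHFD2. A gene was called at an adjusted p under 0.05 in edgeR's quasi-likelihood test, with Benjamini-Hochberg adjustment over all 12712 genes. These counts stand against a broad response: 47.8% of all tested genes were called with shDDX41 #1 and 24.1% were called lower, 25% were called with shDDX41 #2 and 13.4% were called lower, and 48.8% were called between the hairpins and 24.2% were lower with shDDX41 #1. The median log2 fold change of the 9 enzymes was -0.81 with shDDX41 #1, -0.16 with shDDX41 #2 and -0.44 between the hairpins, where the median of all tested genes was 0.01, -0.01 and 0.01. The CPM of the libraries did not overlap between the groups for 7 enzymes with shDDX41 #1, 6 with shDDX41 #2 and 8 between the hairpins, beside 53.1%, 43.8% and 57.7% of all tested genes. Summed over the 9 enzymes, the level ran from 1371 to 1416 CPM over the sh-Control libraries, from 994.5 to 1030 over those of shDDX41 #1 and from 1150 to 1232 over those of shDDX41 #2. In these bulk libraries, fewer cells with high levels and less RNA in each cell cannot be told apart.

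**Figure D1:**
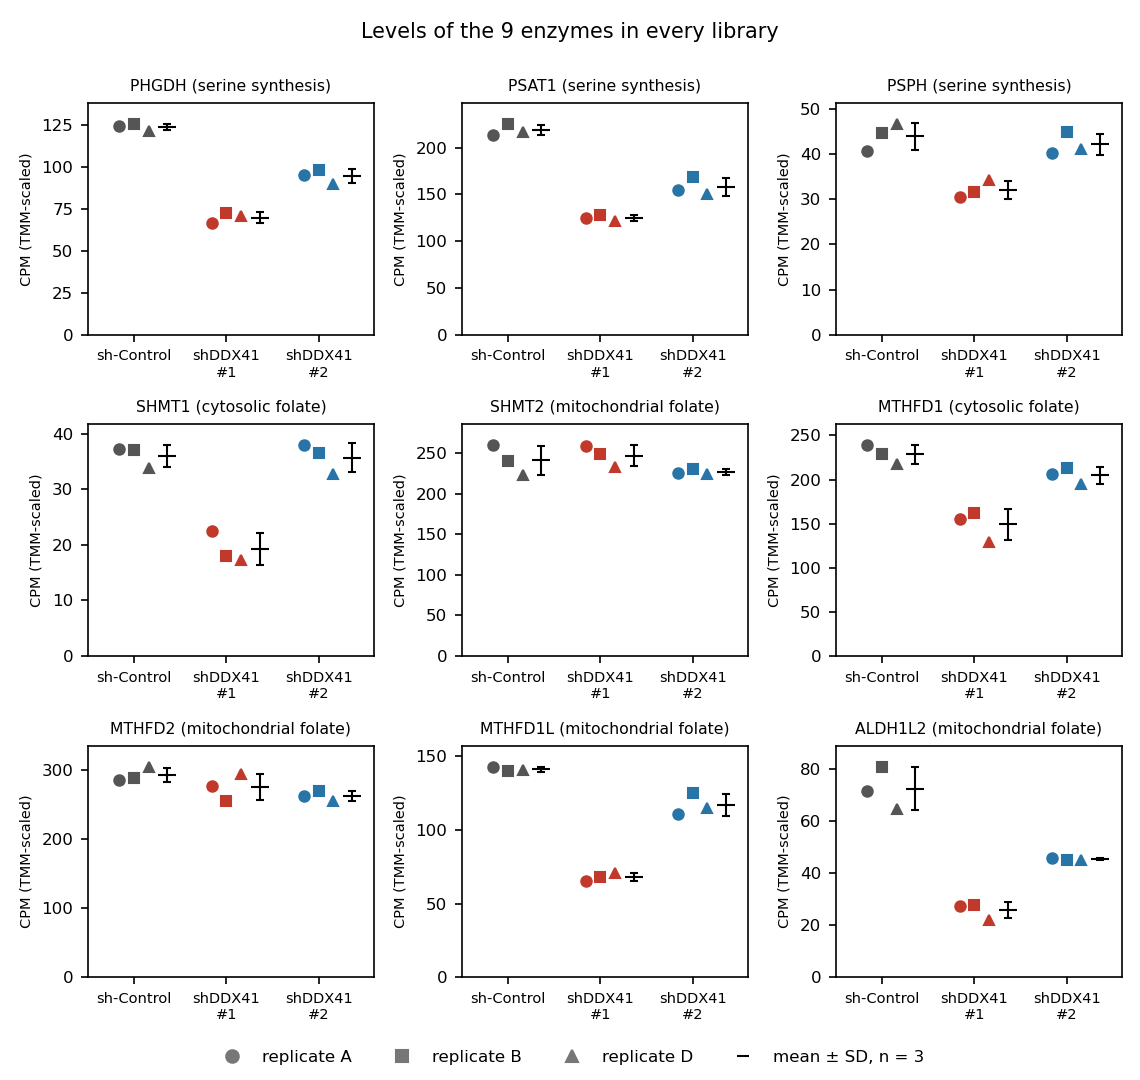
Level of each enzyme (y axis, CPM after TMM scaling, from 0) in the 9 libraries of the 3 groups (x axis), with a point for each library and the mean ± SD of 3 libraries beside the points. PHGDH, PSAT1, MTHFD1L and ALDH1L2 step down from sh-Control to shDDX41 #2 to shDDX41 #1, SHMT1 and PSPH overlap between sh-Control and shDDX41 #2 and are lower in the 3 libraries of shDDX41 #1, and SHMT2 and MTHFD2 stay within 223.5 to 305.7 CPM in every library.

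Before the levels of single enzymes, their promoters are shown where they hold a motif tied to this pathway in general knowledge, TGATGNAA, the core of the element that ATF4 binds with C/EBP factors, and CACGTG, the E-box bound by MYC and related factors. RefSeq promoters on GRCh38.p14 (250 bases before to 50 after each start) were matched for 6 of the 9 genes, all but PSPH, SHMT2 and ALDH1L2. Of 35116 such promoters, 3.62% held TGATGNAA and 7.26% held CACGTG on either strand, with no overlap of letters between the motifs shown here. MTHFD1L, which fell with both hairpins, held both motifs next to each other in 3 of its 4 start windows, and MTHFD1 held 1 E-box. In MTHFD1L the ATF4 letters began 129 and 90 bases before 2 of the annotated starts and the E-box 154 and 115 bases before the same starts, and in MTHFD1 the E-box began 15 bases before the start. The sites are printed with the motif in capitals, 5′ to 3′ on the plus strand.
MTHFD1L, chr6:150866347-150866374: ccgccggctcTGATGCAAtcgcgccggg
MTHFD1L, chr6:150866322-150866347: cgcccggctcCACGTGcgcagccggc
MTHFD1, chr14:64388328-64388352: agtccctaagCACGTGggttgggtt
In the windows of PHGDH, PSAT1, SHMT1 and MTHFD2 neither set of letters was present. A match is a match of letters, and binding at these places was not measured.

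Of the serine synthesis enzymes, PHGDH and PSAT1 fell with both hairpins and PSPH with shDDX41 #1. PHGDH, the first and committing step of the pathway, had 125, 126 and 122 CPM in libraries A, B and D of sh-Control, 66.5, 72.4 and 70.9 CPM with shDDX41 #1 and 95.5, 98.2 and 89.9 CPM with shDDX41 #2. Values of the other genes follow in the same order. The 3 groups did not overlap, and shDDX41 #2 lay between the others. The log2 fold change of PHGDH was -0.83 (SE 0.064, adjusted p = 1.12e-07, edgeR) with shDDX41 #1 and -0.39 (SE 0.063, adjusted p = 0.000422) with shDDX41 #2. Group means were 43.6% and 23.8% below sh-Control.

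PSAT1, the aminotransferase of the pathway, had 214, 225 and 217 CPM in sh-Control, 125, 128 and 122 CPM with shDDX41 #1 and 154, 169 and 151 CPM with shDDX41 #2. Its libraries fell into 3 separate ranges in the same order as those of PHGDH. PSAT1 changed by -0.81 on the log2 scale (SE 0.0632, adjusted p = 1.22e-07, edgeR) with shDDX41 #1 and -0.47 (SE 0.0626, adjusted p = 8.69e-05) with shDDX41 #2.

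PSPH, the phosphatase of the last step, had 40.6, 44.6 and 46.6 CPM in sh-Control, 30.4, 31.6 and 34.3 CPM with shDDX41 #1 and 40.3, 44.8 and 41.2 CPM with shDDX41 #2. All libraries of shDDX41 #1 lay below all others, while those of shDDX41 #2 overlapped sh-Control. PSPH fell by 0.45 on the log2 scale with shDDX41 #1 (SE 0.0799, adjusted p = 0.000297, edgeR). With shDDX41 #2 the log2 fold change was -0.06, with a 95% confidence interval from -0.23 to 0.11 (adjusted p = 0.613, edgeR). The mRNA counts of PSPH and PSAT1 were also compared within each library. The ratio of PSPH to PSAT1 counts was 0.201 ± 0.0126 (SD, n = 3) in sh-Control, 0.257 ± 0.0208 with shDDX41 #1 and 0.267 ± 0.00586 with shDDX41 #2. Ratios of either hairpin lay above all 3 of sh-Control, for which the exact two-sided permutation p was 0.1, the smallest that 3 against 3 libraries allow.

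In the cytosolic arm, SHMT1 and MTHFD1 fell with shDDX41 #1. SHMT1, the cytosolic serine hydroxymethyltransferase, had 37.2, 37.1 and 33.8 CPM in sh-Control, 22.5, 18.1 and 17.2 CPM with shDDX41 #1 and 37.9, 36.5 and 32.8 CPM with shDDX41 #2. The libraries of shDDX41 #1 lay apart below the rest, and the other two groups shared 1 range. The log2 fold change of SHMT1 was -0.90 (SE 0.101, adjusted p = 4.35e-06, edgeR) with shDDX41 #1. With shDDX41 #2 it was -0.01, with an interval from -0.21 to 0.19 (adjusted p = 0.951, edgeR), and its sign turned with the scaling and with the libraries used. Of all 9 enzymes, SHMT1 had the widest gap between the hairpins, at -0.89 on the log2 scale (SE 0.101, adjusted p = 4.65e-06, edgeR).

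MTHFD1, the cytosolic enzyme with 3 activities, had 239, 229 and 217 CPM in sh-Control, 156, 163 and 129 CPM with shDDX41 #1 and 206, 213 and 195 CPM with shDDX41 #2. All groups were apart, with shDDX41 #2 just under sh-Control and library D of shDDX41 #1 the lowest of all. MTHFD1 fell by 0.61 on the log2 scale with shDDX41 #1 (SE 0.0803, adjusted p = 2.01e-05, edgeR), and by 0.51 when library D of that group was left out (adjusted p = 2.91e-06). With shDDX41 #2 the log2 fold change was -0.16, with an interval from -0.33 to 0.01 (adjusted p = 0.162, edgeR). Without library D of shDDX41 #1, which enters the shared estimate of the spread, it was -0.15 and passed (adjusted p = 0.0455).

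The mitochondrial arm was split. SHMT2, the mitochondrial counterpart of SHMT1, had 259.9, 241 and 224 CPM in sh-Control, 259, 249 and 233 CPM with shDDX41 #1 and 226, 231 and 225 CPM with shDDX41 #2. The 3 ranges overlapped, except that all libraries of shDDX41 #1 lay above those of shDDX41 #2. Its log2 fold change was 0.04 with shDDX41 #1 (interval from -0.11 to 0.18, adjusted p = 0.691, edgeR) and -0.09 with shDDX41 #2 (interval from -0.23 to 0.06, adjusted p = 0.368). Between the hairpins SHMT2 differed by 0.12 (interval from -0.02 to 0.27, adjusted p = 0.144, edgeR). Without library D of shDDX41 #1 that difference was 0.17 and passed (adjusted p = 0.0405), and without library D of sh-Control the value with shDDX41 #1 was -0.02.

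MTHFD2, the mitochondrial dehydrogenase and cyclohydrolase, had 286, 289 and 306 CPM in sh-Control, 278, 256 and 295 CPM with shDDX41 #1 and 263, 270.3 and 256 CPM with shDDX41 #2. Its libraries overlapped between sh-Control and shDDX41 #1, and those of shDDX41 #2 lay below sh-Control. The log2 fold change of MTHFD2 was -0.09 with shDDX41 #1 (interval from -0.23 to 0.05, adjusted p = 0.279, edgeR) and -0.16 with shDDX41 #2 (interval from -0.30 to -0.02, adjusted p = 0.0873). The second value passed in 3 of 18 alternatives: with library size alone (-0.18, adjusted p = 0.0396), in a fit of only the 6 libraries compared (-0.15, adjusted p = 0.0399), and without library D of shDDX41 #1 (-0.15, adjusted p = 0.0353).

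MTHFD1L, the mitochondrial enzyme that releases formate, had 143, 140 and 141 CPM in sh-Control, 65.4, 67.9 and 70.6 CPM with shDDX41 #1 and 111, 125 and 115 CPM with shDDX41 #2. The groups formed 3 ranges with no overlap, and the levels with shDDX41 #1 were 51.9% below sh-Control on average. MTHFD1L changed by -1.06 on the log2 scale (SE 0.0657, adjusted p = 1.41e-08, edgeR) with shDDX41 #1 and -0.27 (SE 0.064, adjusted p = 0.00633) with shDDX41 #2.

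ALDH1L2, the mitochondrial formyl-tetrahydrofolate dehydrogenase, had the largest log2 fold change of the 9 with either hairpin, though not the largest change in CPM. It had 71.8, 81.1 and 64.6 CPM in sh-Control, 27.4, 28.0 and 22.2 CPM with shDDX41 #1 and 45.9, 45.1 and 45.3 CPM with shDDX41 #2. Again shDDX41 #2 lay between the other groups with no overlap. ALDH1L2 fell by 1.49 on the log2 scale with shDDX41 #1 (SE 0.0971, adjusted p = 2.29e-08, edgeR) and by 0.67 with shDDX41 #2 (SE 0.0925, adjusted p = 0.00011) and its means were 64.3% and 37.3% below sh-Control.

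**Figure D2:**
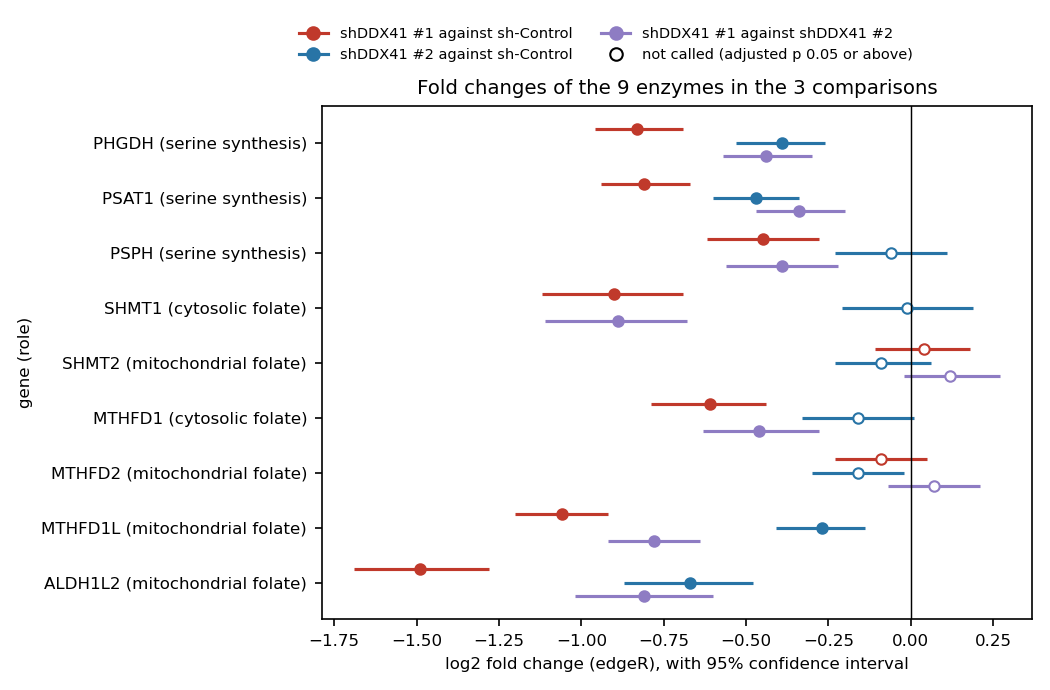
Log2 fold change of each enzyme (x axis, edgeR, bars are 95% confidence intervals) for each hairpin against sh-Control and for shDDX41 #1 against shDDX41 #2, with filled points for called genes and open points for those at an adjusted p of 0.05 or above. The values with shDDX41 #1 run from -1.49 for ALDH1L2 to 0.04 for SHMT2, and SHMT2 and MTHFD2 are open in all 3 comparisons.

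The sizes differed between the hairpins for the 7 enzymes that fell with shDDX41 #1. Tested directly, the further fall with shDDX41 #1 was 0.44 for PHGDH on the log2 scale (adjusted p = 5.7e-05, edgeR). PSAT1 dropped by 0.34 more (adjusted p = 0.000452, edgeR) and PSPH dropped by 0.39 more (adjusted p = 9e-04). In the folate enzymes, MTHFD1 dropped by 0.46 more (adjusted p = 0.000273, edgeR), MTHFD1L dropped by 0.78 more (adjusted p = 2.49e-07) and ALDH1L2 dropped by 0.81 more (adjusted p = 9.02e-06). The hairpin with the lower DDX41 level had the lower level of each of these 7 genes, in 3 of 3 libraries against all 3 of the other hairpin. These are the enzymes called lower in this comparison, so their shared direction follows from that choice. SHMT2 also did not overlap, but was higher with shDDX41 #1, and 57.7% of all tested genes did not overlap. With 1 hairpin at each depth of knockdown, the depth and the hairpin cannot be told apart.

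Ratios of counts within a library do not depend on how the libraries were scaled, and the pairs were chosen after the values were seen. The ratio of SHMT1 to SHMT2, the cytosolic to the mitochondrial form, was 0.149 ± 0.0057 (SD, n = 3) in sh-Control, 0.0777 ± 0.00788 with shDDX41 #1 and 0.157 ± 0.0112 with shDDX41 #2. It was lower in 3 of 3 libraries of shDDX41 #1 (exact two-sided permutation p = 0.1, the smallest possible), while shDDX41 #2 overlapped sh-Control (exact p = 0.4). The ratio of MTHFD1L to MTHFD2, the last and the middle step towards formate, was 0.481 ± 0.0201 in sh-Control, 0.247 ± 0.0164 with shDDX41 #1 and 0.445 ± 0.0198 with shDDX41 #2. Against MTHFD2, ALDH1L2 stood at 0.247 ± 0.0347 in sh-Control, 0.0944 ± 0.0173 with shDDX41 #1 and 0.173 ± 0.00527 with shDDX41 #2, with no overlap between the groups. For PHGDH against SHMT2 the ratios were 0.516 ± 0.033, 0.284 ± 0.0244 and 0.416 ± 0.0141 in the same order, again with no overlap.

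**Figure D3:**
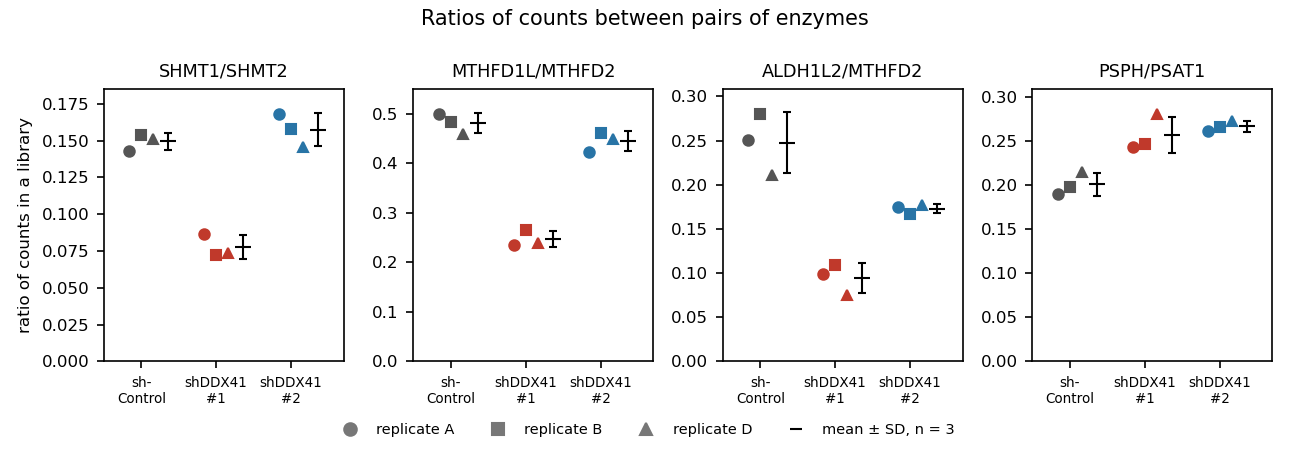
Ratio of the counts of 2 enzymes in a library (y axis, no unit, from 0) in each of the 9 libraries by group, with the mean ± SD of 3 libraries. SHMT1/SHMT2 and MTHFD1L/MTHFD2 drop to 52.0% and 51.2% of their sh-Control mean with shDDX41 #1, and PSPH/PSAT1 rises to 128% with shDDX41 #1 and 132.7% with shDDX41 #2.

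Levels of different genes were compared per kilobase of annotated exon on GRCh38, as lengths of the transcripts in these cells were not measured. In sh-Control, PSAT1 was highest with 99.95 ± 2.62 CPM per kb (SD, n = 3), followed by SHMT2 with 79.7 ± 6.01 and MTHFD2 with 65.9 ± 2.37 CPM per kb. PHGDH had 46.6 ± 0.785, MTHFD1L 36.9 ± 0.416 and MTHFD1 33.1 ± 1.55 CPM per kb. PSPH, SHMT1 and ALDH1L2 closed the order with 20.2 ± 1.39, 12.8 ± 0.684 and 9.60 ± 1.1 CPM per kb. No 2 neighbours in this order had overlapping intervals of mean ± SD. With shDDX41 #1 the head of the order changed: SHMT2 had 81.6 ± 4.3, MTHFD2 had 62.0 ± 4.37 and PSAT1 had 57.2 ± 1.44 CPM per kb, and the last 2 were within their SDs of each other. With shDDX41 #2, SHMT2 had 74.9 ± 1.09, PSAT1 had 72.2 ± 4.34 and MTHFD2 had 59.0 ± 1.64 CPM per kb, where the first 2 were within their SDs. The mitochondrial form SHMT2 exceeded the cytosolic SHMT1 in every group.

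Other enzymes of folate metabolism are given for the 8 tested genes reported here, and the counts leave out the rest of the list. With shDDX41 #1, 3 of these fell (median log2 fold change -0.12), and with shDDX41 #2, 1 fell and 1 rose (median -0.05). The counts of this list and of those below stand beside 47.8% and 25% of all tested genes called with the respective hairpin. TYMS, thymidylate synthase, had 368 ± 16.4 CPM (SD, n = 3) in sh-Control, 197 ± 13.5 with shDDX41 #1 and 352 ± 23.4 with shDDX41 #2, a log2 fold change of -0.90 (adjusted p = 1.24e-07, edgeR) with the first hairpin and -0.06 (adjusted p = 0.537) with the second. GGH, which removes glutamate tails from folate, fell by 0.87 with shDDX41 #1 (adjusted p = 2.62e-07, edgeR). MTHFS fell by 0.81 with the same hairpin, from 2.08 CPM in sh-Control (adjusted p = 0.032, edgeR). The MTHFS call was lost without library A or D of sh-Control or B of shDDX41 #1 (adjusted p from 0.102 to 0.145). It was also lost in a fit of only the 6 libraries compared (adjusted p = 0.0582, edgeR). GART of purine synthesis fell by 0.30 with shDDX41 #2 (adjusted p = 0.00218, edgeR) and MTHFD2L, a relative of MTHFD2, rose by 0.47 (adjusted p = 0.0311). The MTHFD2L call was lost without any 1 of 5 libraries, and with the DESeq2 Wald test (adjusted p = 0.0514).

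Several genes of folate transport and glycine cleavage were near 0 counts. Only 3 of 6 transport genes could be tested, and the folate receptors FOLR1, FOLR2 and FOLR3 had at most 6 counts in a library. SLC25A32, the mitochondrial folate carrier, fell by 0.21 with shDDX41 #1 (adjusted p = 0.0184, edgeR) and by 0.31 with shDDX41 #2 (adjusted p = 0.00331). The first of these was lost without library D of sh-Control or libraries A or B of shDDX41 #1 (adjusted p from 0.0521 to 0.0801) and with upper quartile factors (adjusted p = 0.12). SLC19A1, the plasma membrane folate carrier, fell by 0.31 with shDDX41 #2 (adjusted p = 0.00501, edgeR) and had -0.16 with shDDX41 #1 (adjusted p = 0.0761). GLDC, the decarboxylase of the glycine cleavage system, had at most 1 count in a library, so its mRNA was not detectable beyond that at this depth. Of its 3 tested genes, GCSH fell by 0.34 with shDDX41 #1 (adjusted p = 0.0106, edgeR), a call that was lost without library B of shDDX41 #1 (adjusted p = 0.0567).

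In the methionine cycle and transsulfuration, 2 of 10 tested genes fell and 2 rose with shDDX41 #1, and 2 fell with shDDX41 #2. The last count was 4 without library D of shDDX41 #1. Of all tested genes, 47.8% were called with shDDX41 #1 and 25% with shDDX41 #2. MTR, the enzyme that takes the methyl group from folate, fell by 0.49 with shDDX41 #1 (adjusted p = 0.000831, edgeR), and AHCY and AHCYL2 rose by 0.26 (adjusted p = 0.00733) and 0.40 (adjusted p = 0.00748). MAT2A, which makes S-adenosylmethionine, fell by 0.52 with shDDX41 #2 (adjusted p = 0.00344, edgeR). CBS, which joins serine to homocysteine, fell with both, with log2 fold changes of -1.28 (adjusted p = 0.00561, edgeR) and -1.66 (adjusted p = 0.00286), from a low and variable 5.36 ± 2.44 CPM (SD, n = 3) in sh-Control.

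Of 8 tested genes for serine and glycine transport and serine breakdown, 6 fell and 1 rose with shDDX41 #1 (median -0.57), and 3 fell and 2 rose with shDDX41 #2 (median -0.07). SFXN1, which carries serine into mitochondria, fell with both hairpins, from 116 ± 4.11 CPM (SD, n = 3) to 77.9 ± 2.5 and 75.3 ± 1.74, with a log2 fold change of -0.57 (adjusted p = 2.88e-06, edgeR) and -0.62 (adjusted p = 5.82e-06). Between the hairpins SFXN1 differed by 0.05 (adjusted p = 0.548, edgeR). Its relative SFXN3 fell by 0.29 (adjusted p = 0.00593, edgeR) and 0.53 (adjusted p = 0.000177). SLC38A1, a neutral amino acid transporter, fell by 1.02 with shDDX41 #1 (adjusted p = 8.59e-07, edgeR) and had -0.01 with shDDX41 #2 (adjusted p = 0.951). SDSL, a serine dehydratase-like gene, rose with both, by 1.15 (adjusted p = 0.0038, edgeR) and 1.44 (adjusted p = 0.00156), but from only 1.26 ± 0.189 CPM in sh-Control.

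**Figure D4:**
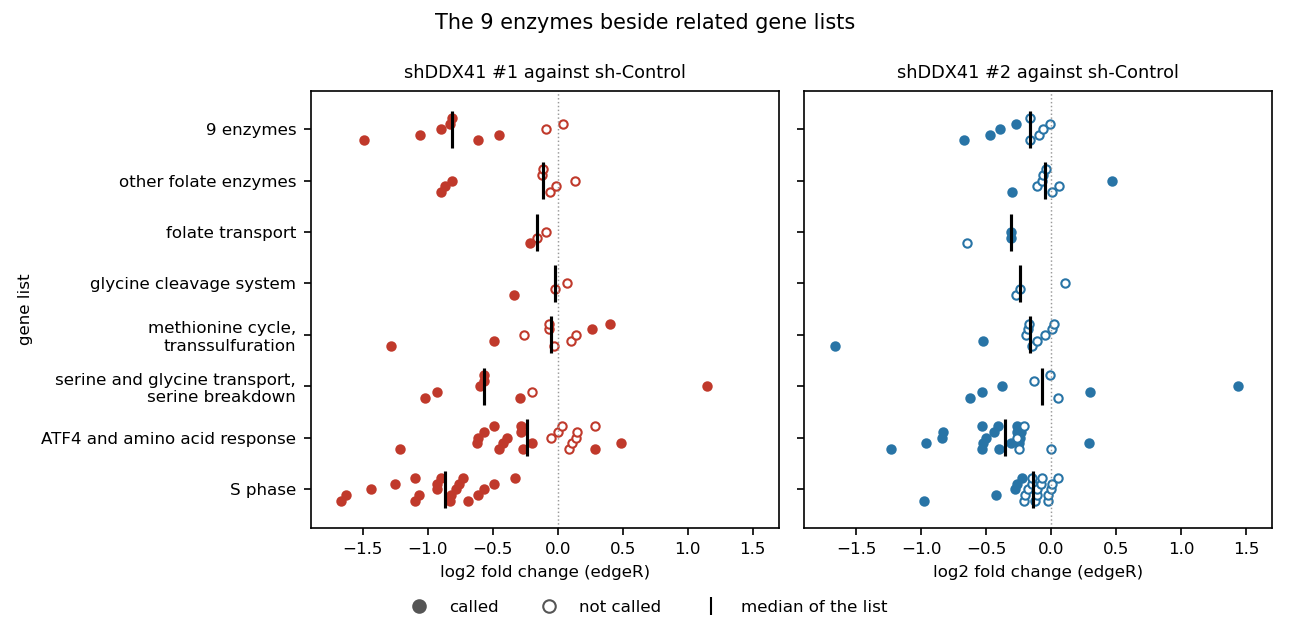
Log2 fold change (x axis, edgeR) of the 9 enzymes and of the tested genes reported here from 7 related lists (rows), for shDDX41 #1 and shDDX41 #2 against the same sh-Control libraries, with filled points for called genes, open points for the rest and a bar at the median of each list. With shDDX41 #1 the medians of the 9 enzymes and of the S phase list are -0.81 and -0.87, and with shDDX41 #2 they are -0.16 and -0.13.

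The list of ATF4 and amino acid response genes, whose factor is known to act on several of the 9 enzymes, had 12 of 22 tested genes lower and 2 higher with shDDX41 #1 (median -0.23), and 17 lower and 1 higher with shDDX41 #2 (median -0.36). Between the hairpins the order was turned around relative to the 9 enzymes, as 12 of these genes were higher and 3 lower with shDDX41 #1 (median 0.27). Of all tested genes, 48.8% were called in that comparison and 24.2% were lower with shDDX41 #1. DDIT3, a stress-induced transcription factor, differed by 1.25 on the log2 scale between the hairpins (adjusted p = 2.31e-06, edgeR) and SLC3A2, a subunit of amino acid exchangers, by 0.56 (adjusted p = 3.09e-06), both higher with shDDX41 #1. Against sh-Control, both fell with shDDX41 #2, by 0.96 (adjusted p = 0.000114, edgeR) and 0.53 (adjusted p = 2.45e-05). With shDDX41 #1 neither was called against sh-Control, at 0.29 (adjusted p = 0.065, edgeR) and 0.03 (adjusted p = 0.685). ASNS, asparagine synthetase, and SLC7A11, the cystine transporter, were lower with shDDX41 #1, by 0.62 (adjusted p = 7.63e-06, edgeR) and 1.21 (adjusted p = 2.01e-06) against sh-Control. The 2 that rose with shDDX41 #1 were ATF3, a stress-induced factor, by 0.49 (adjusted p = 0.0226, edgeR) and VLDLR, a lipoprotein receptor, by 0.29 (adjusted p = 0.0229). ATF3 lost its call without library B or D of sh-Control or A or B of shDDX41 #1 (adjusted p from 0.0737 to 0.0975), and VLDLR without library A of either group (adjusted p of 0.108 and 0.0986). DDIT4, an inhibitor of mTORC1 signalling, fell by 0.84 with shDDX41 #2 (adjusted p = 5.82e-06, edgeR). ATF4 itself, named here after its values were seen, had 647 ± 22.8 CPM (SD, n = 3) in sh-Control, 714 ± 56.5 with shDDX41 #1 (adjusted p = 0.102, edgeR) and 540 ± 22.4 with shDDX41 #2 (adjusted p = 0.0121). Its mean was highest with shDDX41 #1, a difference from sh-Control that was not called. Between the hairpins ATF4 was higher with shDDX41 #1 by 0.40 on the log2 scale (adjusted p = 0.000212, edgeR). These are mRNA levels, and the part of ATF4 activity in the levels of the 9 enzymes was not tested. The fall with shDDX41 #2 was no longer called without library B or D of that group (adjusted p of 0.0624 and 0.0554).

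S phase genes were looked at beside the enzymes. With shDDX41 #1, 20 of 20 fell (median -0.87), among them RRM2 of deoxynucleotide synthesis, from 348 ± 13.2 to 113 ± 13.1 CPM (SD, n = 3, log2 fold change -1.63, adjusted p = 1.65e-09, edgeR), and CCNE2, cyclin E2, by 1.67 (adjusted p = 3.25e-09). With shDDX41 #2, 5 of 20 fell (median -0.13), with MCM6 of the replicative helicase by 0.98 (adjusted p = 7.64e-08, edgeR) and CDCA7, a MYC and E2F target, by 0.42 (adjusted p = 0.000947). That count was 2 or 3 without library B or D of sh-Control or any 1 library of shDDX41 #2, and 9 without library D of shDDX41 #1. Between the hairpins 19 were lower with shDDX41 #1 and 1 was higher, MCM6 by 0.37 (adjusted p = 0.000196, edgeR). That comparison called 48.8% of all tested genes, and 24.2% of all tested genes were lower with shDDX41 #1. The share of cells in S phase was not measured here, and its part in the levels of the 9 enzymes was not tested.

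For each enzyme, the 2 tested genes of at least 5 CPM with the most similar pattern were found by Pearson's r of log2 CPM over the 9 libraries, which fall into 3 groups, so that r mostly reflects the order of the groups. PHGDH was nearest to SLC26A6 (r = 0.9947) and SWAP70 (r = 0.9941), and PSAT1 to FEZ2 (r = 0.9968) and VAT1 (r = 0.9901). MTHFD1L was nearest to CLIC4 (r = 0.9953) and PDK1 (r = 0.9945), ALDH1L2 to SREBF1 (r = 0.9909) and SLC39A14 (r = 0.9898), and MTHFD1 to ATP2A2 (r = 0.9934) and DGAT1 (r = 0.9912). For PSPH these were TMF1 (r = 0.991) and NSF (r = 0.9902), and for SHMT1, for which 1 is given, TP53RK (r = 0.9842). SHMT2 had looser partners, ADNP2 (r = 0.9536) and ZNF395 (r = 0.9433), as did MTHFD2 with LOC100505812 (r = 0.9794) and ACN9 (r = 0.9478). None of the genes named here was another of the 9 enzymes.

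Neighbouring genes on the opposite strand share exon bases with 5 of the 9 enzymes in the annotation, and their reads could be mixed if strand was not used in counting. SMCR8 shares 196 bases with SHMT1 and had 83.2 ± 7.31 CPM (SD, n = 3) in sh-Control, 133 ± 22.1 with shDDX41 #1 and 104 ± 3.76 with shDDX41 #2. Its mean was highest in the group where SHMT1 was lowest, while SHMT1 overlapped between sh-Control and shDDX41 #2. C12orf45 shares 145 bases with ALDH1L2 and had 15.0 ± 0.626, 17.8 ± 3.54 and 12.7 ± 0.598 CPM, against 72.5 ± 8.28, 25.9 ± 3.18 and 45.4 ± 0.397 CPM of ALDH1L2. ZBTB25 with MTHFD1, NDUFA4L2 with SHMT2 and SLC4A5 with MTHFD2 were at or below 3.64 CPM on average in every group. PSAT1 and MTHFD2 have 4 and 7 annotated pseudogenes, and how reads that match several copies were counted was not given in the sources used here.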

How the data were processed

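RNA-seq of 9 libraries was deposited as raw counts of reads per gene, not normalized by the authors. The submitters' processing notes name FastQC 0.11.7, HISAT2 2.0.5 and featureCounts 1.5.2 with the builds hg38 and mm10, without roles. The annotation is not given in the sources used here. The labels name a stranded kit and the methods of the study a kit without strand. Groups were taken from the labels.

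The tests were run with edgeR 4.0.16 (R 4.3.3). Genes passing filterByExpr (minimum count 10) were kept, TMM factors ran from 0.963 to 1.02, and 1 quasi-likelihood model was fitted to all 9 libraries, two-sided, with Benjamini-Hochberg adjustment in each of 3 contrasts. The biological coefficient of variation was 0.0768. Log2 CPM used a prior count of 2. An exact permutation test of 3 against 3 libraries cannot go below 0.1. Exon lengths came from GENCODE v29 on GRCh38. Tests were checked on simulated data.

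The members, lists and tests were chosen with earlier results of these data known. Named were all members, DDX41, the 2 called genes with the smallest adjusted p per list, contrast and direction, any called folate, glycine or methionine gene, and the 2 genes most like each member. Alternatives were other scalings (DESeq2 1.42.0 size factors, upper quartile, none), filters, tests (DESeq2, limma 3.58.1 voom), 6 libraries only, a replicate block, each library left out, and an adjusted p under 0.01. A few genes of the lists, the markers and the genes most like a member are not reported here and are left out of the counts over lists.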

Additional observations from a re-analysis of the deposited data

Results flagged for a closer look

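For 7 of the 9 enzymes the effect of shDDX41 #1 differed from that of shDDX41 #2 in the direct test between the hairpins (edgeR, adjusted over all genes). The difference in log2 fold change was -0.44 for PHGDH, -0.34 for PSAT1, -0.39 for PSPH, -0.89 for SHMT1, -0.46 for MTHFD1, -0.78 for MTHFD1L and -0.81 for ALDH1L2, each lower with shDDX41 #1. The same comparison called 48.8% of all tested genes.

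Of the 74 tested genes of the related lists that are reported here, 23 were called with both hairpins, and 2 of these moved in opposite directions. SLC1A4, a serine and alanine transporter, differed by -0.90 between the hairpins (adjusted p = 1.83e-06, edgeR) and JDP2, a transcription factor of the AP-1 family, by -0.74 (adjusted p = 1.84e-05). The choice of genes with opposite signs makes such a difference large. The rise with shDDX41 #2 was no longer called for SLC1A4 without library B or D of sh-Control or A or B of shDDX41 #2 (adjusted p from 0.0514 to 0.135), and for JDP2 without any 1 library of sh-Control or shDDX41 #2 (adjusted p from 0.0511 to 0.122). For SLC1A4 it was also not called with library size alone (adjusted p = 0.055, edgeR). Among all tested genes, 1810 were called with both hairpins and 388 of them (21.4%) in opposite directions.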

How the results depend on the processing

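Of 27 values (9 enzymes in 3 comparisons), 22 kept direction and side of the threshold under 18 alternatives each. No called enzyme lost its call. The number of enzymes called was 7 with shDDX41 #1 under every alternative, 4 to 6 with shDDX41 #2 and 7 to 8 between the hairpins, and 7, 4 and 7 at an adjusted p under 0.01. Signs turned only for values near 0. SHMT2 with shDDX41 #1 had -0.02 to 0.09 as single libraries were left out, and SHMT1 with shDDX41 #2 had -0.06 to 0.05, and 0.02 with upper quartile factors. The cause was not tested.

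Between libraries that share a replicate letter, correlations of deviations were 0.073, 0.158 and 0.243 for sh-Control with shDDX41 #1. They ran from -0.057 to 0.023 for the pairs with shDDX41 #2. Libraries with different letters were not compared in this way, so whether the letters pair the libraries was not decided. With the replicate block, 7, 4 and 7 enzymes were called, and 6351, 3570 and 6503 of all genes. Without the block, 6078, 3174 and 6204 of all genes were called.

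Over all genes, calls with shDDX41 #2 numbered 3174, and from 2054 without library B of that group to 4248 without library D of shDDX41 #1. Of 130 calls of list genes, 104 held under every alternative and none turned. Mean counts over the libraries ran from 544 for SHMT1 to 4920 for MTHFD2 among the enzymes. For MTHFS, CBS and SDSL they were 31, 54 and 44, where counting error weighs more, though it was not computed. CBS also varied between the sh-Control libraries, from 2.74 to 7.57 CPM.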
